A study of Rattus norvegicus with 20 samples.

Results

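Interferon response genes were examined in the femur of 4-week-old rats from 4 strains. The members were taken by name from a list of 48 genes, and every probe set that the array's annotation pairs with exactly 1 of these symbols was included. Of the 48 listed genes, 43 were found, on 63 of the 31042 probe sets that were not controls, beside 14217 genes with a single symbol in the whole series. Ddx58, Rigi, Gbp5, Ifi47 and Xaf1 matched no probe set under these symbols, and the RNA sensor that 2 of these names refer to was measured under the older symbol Rig1.

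NP and P are inbred strains selected for low and high alcohol preference from the same Wistar colony. NP.P rats carry the P form of the chromosome 4 interval 4q22 to 4q34 on the NP background, and P.NP rats carry the NP form on the P background, each made by repeated backcrossing and then kept as a single congenic strain. Each strain was represented by 5 animals on 5 arrays, the labels list no treatment, and the study's methods name male animals for all strains. RNA came from the femur, which the sample labels call proximal femur, so marrow cells were included with bone. In such bulk RNA, fewer cells of a type and less RNA per cell cannot be told apart.

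Interferons are secreted when a cell detects viral or other foreign nucleic acid. Type I interferons bind the receptor of Ifnar1 and Ifnar2 and act on genes with the interferon-stimulated response element, to which Stat2 and Irf9 are recruited, whereas interferon gamma binds Ifngr1 and Ifngr2 and acts at gamma-activated sites. The induced genes block viral replication, edit or degrade RNA, and load peptides onto MHC class I molecules. Bone marrow cells express many of these genes without infection, and Irf8 and interferon gamma are known to restrain osteoclast formation.

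The values are MAS5 signals, linear intensities that were scaled to a common mean on every array. Array medians ranged from 292.2 to 322.5, the 3′ to 5′ ratio ranged from 1.032 to 1.147 for GAPDH and from 1.848 to 2.385 for beta-actin, and arrays correlated at 0.9193 to 0.9391 with each other. A signal of 169.7, the 40th percentile of probe set means, was used as the limit for testing. Of the member probe sets, 48 for 36 genes passed it, among 18625 probe sets of the series, and 43 of the 48 had no single array below the limit. Signals of different probe sets depend on their probes and were not compared with each other.

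The strain comparisons share animals, because all were taken from 1 limma fit over 20 arrays with the 4 strain means. A probe set was called at a false discovery rate of 10% after Benjamini-Hochberg adjustment over all probe sets tested. The F test over the strains called 11 of the 48 member probe sets (22.9%), against 18.2% of all probe sets. Most of the called differences lay between backgrounds. The contrast of both P background strains with both NP background strains called 12 members (25%), 11 lower and 1 higher on the P background, whereas it called 22.5% of all probe sets, 11.3% lower and 11.1% higher. The members therefore had a share of calls near that of the series, with 22.9% of the 48 lower. Their median difference was -0.01 log2, and the median of all probe sets tested was 0.02 log2. The lower members were Parp9, Dtx3l, Ifitm1, Isg20, Tap2, Rsad2, Irf7, Tap1, Ifitm2, Irf1 and B2m, and the higher member was a Stat2 probe set.

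**Figure D1:**
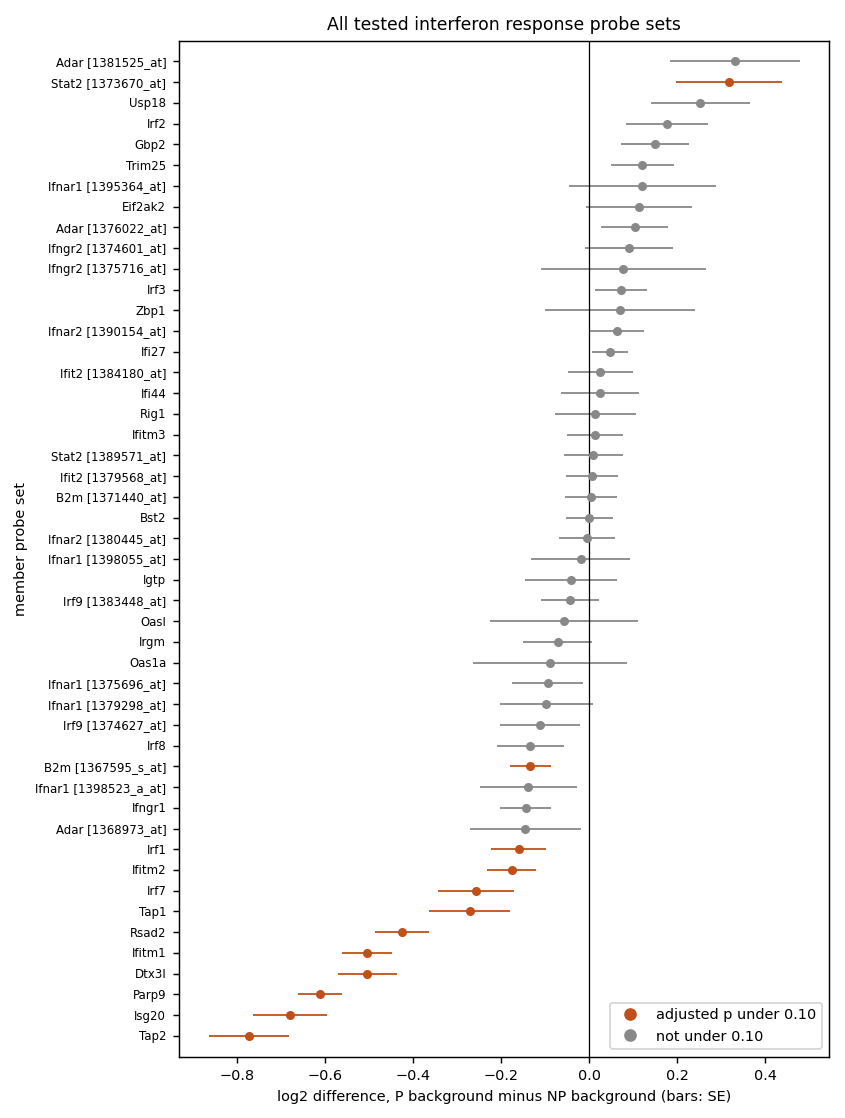
Log2 difference of MAS5 signal between the P background (P and P.NP) and the NP background (NP and NP.P) for the 48 tested member probe sets, with standard errors from the limma fit over 20 arrays. Coloured points have a limma adjusted p under 0.10. Parp9, Dtx3l, Ifitm1, Isg20, Tap2 and Rsad2 lie apart at -0.77 to -0.43, and most others lie between -0.3 and 0.3.

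The called members were placed beside the rat reference promoters of RefSeq (assembly GRCr8), because many interferon-induced genes carry the response element near their start. The element's core was searched as GAAA, any 2 bases and GAAA again, on either strand, in the 300 bases from 250 before to 50 after each start. It was found in 22 of the 36 listed members with a promoter in the table (61.1%) and in 1312 of 33469 promoters of the table (3.92%). Of the 10 members lower on the P background that the table holds, 8 had it (80.0%), and of the 18 tested members not called between backgrounds 9 had it (50%). The core of the gamma-activated site, TTCNNNGAA, which is the same letters on both strands, was found in 10 of the 36 listed members (27.8%) and in 8.87% of the promoters of the table. It was found in 1 of the 10 lower members (10%) and in 8 of the 18 members not called (44.4%), which is the opposite order to that of the response element. The members not called included the receptor genes Ifnar1, Ifnar2, Ifngr1 and Ifngr2, all without the response element core. They also included Irf8, which was called in other contrasts, so these sets differ in more than the background call. The reference is not a P or NP genome, and a match of letters is a description, not a measured binding site.

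The 250 bases before the start are shown for Isg20, Rsad2 and Tap2, which had large differences and a match upstream. Capitals mark the core. It begins 92 bases before the start of Isg20 (chr1:142239809-142240058, plus strand), 147 before that of Rsad2 (chr6:48788121-48788370, minus strand) and 41 before that of Tap2 (chr20:4652297-4652546, minus strand).
Isg20: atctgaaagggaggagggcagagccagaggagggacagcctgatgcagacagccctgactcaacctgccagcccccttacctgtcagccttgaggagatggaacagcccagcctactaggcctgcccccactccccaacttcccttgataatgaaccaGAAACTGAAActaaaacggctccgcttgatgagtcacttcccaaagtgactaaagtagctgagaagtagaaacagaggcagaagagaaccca
Rsad2: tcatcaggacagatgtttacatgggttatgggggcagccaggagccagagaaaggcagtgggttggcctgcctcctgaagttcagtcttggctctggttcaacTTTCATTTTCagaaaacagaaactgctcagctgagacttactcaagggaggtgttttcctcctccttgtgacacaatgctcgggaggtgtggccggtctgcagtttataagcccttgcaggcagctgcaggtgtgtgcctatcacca
Tap2: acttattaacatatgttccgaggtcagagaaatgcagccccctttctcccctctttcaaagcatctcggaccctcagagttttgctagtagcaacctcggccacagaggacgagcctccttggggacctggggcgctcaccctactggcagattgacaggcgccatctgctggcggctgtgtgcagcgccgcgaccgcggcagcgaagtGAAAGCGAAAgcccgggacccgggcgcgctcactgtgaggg

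The core with 10 bases on each side is shown for the other members called by the F test or between backgrounds in which it was found, so that the letters can be compared between genes. It begins 121 bases before the start in Tap1, 69 in Irf7, 33 in Ifitm2, 31 in Gbp2 and 150 in B2m, whereas in Dtx3l it begins 10 bases after the first transcribed base. Isg20, Dtx3l and B2m share the same 10 letters, and the match of Irf7 is that of Rsad2. Parp9, Irf1 and Stat2 had no match in the window, which rests on the single start that the table gives for each gene. Irf1 had the gamma-activated core 142 bases before its start, and Irf8 had that core at 180 and at 161 bases.
Dtx3l: cccgggaaacGAAACTGAAActttgcctct
Tap1: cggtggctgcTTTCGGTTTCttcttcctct
Irf7: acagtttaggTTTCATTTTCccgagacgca
Ifitm2: ccaccaacagGAAAAGGAAActgctagaga
B2m: ataagaacatGAAACTGAAAatgggaaagt
Gbp2: agttttttagTTTCACTTTCattgtcttaa
Irf1 gamma-activated core: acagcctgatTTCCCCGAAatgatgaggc
Irf8 gamma-activated core, distal: cagaagtgatTTCTCGGAAaggcgagcgc
Irf8 gamma-activated core, proximal: aggcgagcgcTTCAGAGAAggcggacccg

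None of the 10 tested probe sets of Ifnar1, Ifnar2, Ifngr1 and Ifngr2, which form the receptors of type I interferons and of interferon gamma, was called by the F test or any contrast. The lowest limma adjusted p of the F test was 0.238. Their differences between backgrounds ranged from -0.14 to 0.12 log2. Ifngr1, the ligand-binding chain for interferon gamma, averaged 4899 ± 539 (SD, n = 5) in NP rats, 4863 ± 446 in NP.P, 4370 ± 352 in P and 4440 ± 141 in P.NP rats. These ranges overlapped.

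Among the transcription factors, Irf8 was called between congenic and recipient strain, the only member so called in the fit over 20 arrays. Irf8 directs the formation of monocytes, dendritic cells and B lymphocytes. Its signals were 1700, 1547, 2131, 1812 and 1614 in NP rats and 1356, 1053, 1185, 1086 and 1402 in NP.P rats. They were 1373, 1158, 1146, 1491 and 1338 in P and 1450, 1139, 1387, 1421 and 1413 in P.NP rats. Every NP animal was above all 15 animals of the other strains, which overlapped with each other. Irf8 was lower in NP.P than in NP, with a log2 difference of -0.53 ± 0.11 (SE, limma adjusted p = 0.0265). It was also lower in P than in NP, at -0.43 ± 0.11 (limma adjusted p = 0.0263), and the latter had an adjusted p of 0.139 in the methods' unequal-variance test. The contrast between NP.P and NP called 2.3% of all probe sets (1.49% lower, 0.816% higher) and 1 of the 48 members. With the 2 strains fitted alone, the adjusted p of Irf8 in this contrast was 0.138, and in the methods' unequal-variance test it was 0.224. Each of these alternatives called 1 member, which was therefore not Irf8. P.NP and P differed by 0.07 ± 0.11 (limma adjusted p = 0.96). Averaged over the backgrounds, the P segment effect on Irf8 was -0.30 ± 0.08 log2 (limma adjusted p = 0.098), and this call was lost when any 1 of 15 of the 20 arrays was left out. The segment effect called 0.886% of all probe sets, 0.408% lower and 0.478% higher. The interaction of segment and background for Irf8 was 0.47 ± 0.15 log2 and did not pass (limma adjusted p = 0.298).

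The summed signals of MHC class II markers and of megakaryocyte and platelet markers were highest in the same strain as Irf8. The macrophage and monocyte sum and the granulocyte sum also had their highest means in NP rats, with ranges that overlapped those of other strains. The former averaged 73696 in NP, 68003 in NP.P, 68702 in P and 68961 in P.NP rats. The granulocyte sum averaged 135123 in NP, 118255 in NP.P, 124926 in P and 110963 in P.NP rats. It included Lcn2, which averaged 13720 in NP, 10795 in NP.P, 902 in P and 856 in P.NP rats. Camp and Mmp8 also had higher means in NP than in P, whereas S100a9 and S100a8 had higher means in P. The sum of 8 MHC class II markers ranged from 19507 to 24058 in NP, 13962 to 19931 in NP.P, 15137 to 18218 in P and 14958 to 17149 in P.NP rats. Of these 8 markers, Cd74, RT1-Da, RT1-Db1 and RT1-Ba were called lower in NP.P than in NP. All 8 had mean signals over the 20 arrays above the testing limit. However, RT1-Db1, RT1-DMa and Ciita had higher means in P than in NP rats, so the order of the sum was not that of every marker. RT1-Bb entered the sum through a probe set whose difference between backgrounds was -5.63 log2. That probe set averaged 2610 in NP and 2041 in NP.P, but 58.6 in P and 54.5 in P.NP rats, where every array was below the limit. The RT1-Ba probe set in the sum differed by -0.56 log2 between backgrounds, whereas the other tested RT1-Ba probe sets differed by 0.18 to 5.07. The 4 measured B lymphoid markers, of 9 listed, had their lowest sums in NP.P rats, at 10663 to 14535 against 12879 to 17606 in NP. However, they were not lower in P rats, at 15249 to 18733. The 5 measured megakaryocyte and platelet markers, of 6 listed, summed to 45337 to 54690 in NP, 33371 to 43479 in NP.P, 29306 to 36628 in P and 34159 to 37635 in P.NP rats. As for Irf8, every NP animal was above all others in this sum, and 3 of the 5 markers, Ppbp, Treml1 and Gp9, were called lower in NP.P than in NP. Most of the sum came from Pf4, which averaged 35997 in NP rats, where the sum averaged 50889. Itga2b went the other way between backgrounds, averaging 2022 in NP, 1868 in NP.P, 2294 in P and 2348 in P.NP rats. The part of these cell markers in the Irf8 values was not tested.

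**Figure D2:**
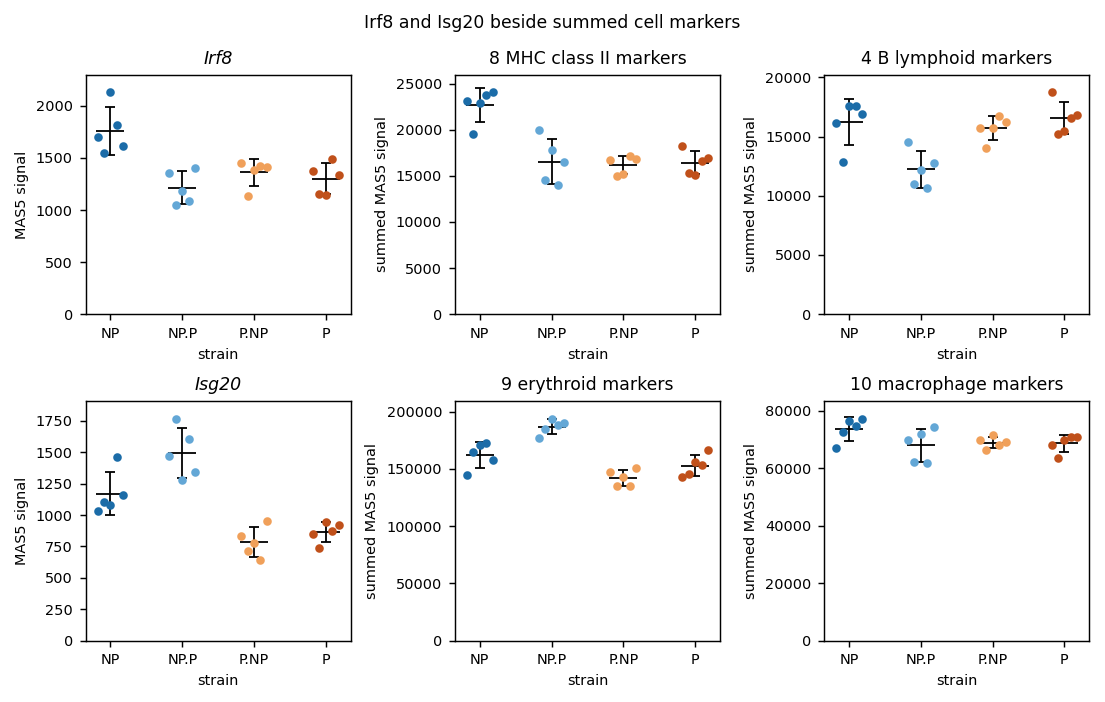
MAS5 signal of Irf8 and of Isg20 per animal in the 4 strains (linear axes from 0), beside the summed signals of marker lists for MHC class II, B lymphoid, erythroid and macrophage cells. Points are animals, and bars are the mean and SD of 5. Irf8 and the MHC class II and macrophage sums have their highest means in NP, and Isg20 and the erythroid sum have theirs in NP.P.

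Irf7, the factor that amplifies type I interferon production, was lower on the P background. Its signals were 825, 1211, 853, 1167 and 1154 in NP, 927, 891, 765, 797 and 704 in NP.P, 796, 794, 917, 740 and 927 in P and 634, 724, 643, 671 and 872 in P.NP rats. Only 3 NP animals stood above all others, and NP.P and P rats lay in the same range. The difference between backgrounds was -0.26 ± 0.09 log2 (limma adjusted p = 0.0496), and the F test also called it (adjusted p = 0.0296). None of the contrasts between single strains passed for Irf7.

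Irf1, an early responder to interferon gamma, was slightly lower on the P background. Signals were 1766, 1798, 2087, 1823 and 2102 in NP, 1612, 1647, 1663, 1800 and 2139 in NP.P, 1871, 1476, 1539, 1514 and 1644 in P and 1656, 1711, 1550, 1663 and 1841 in P.NP rats. The strains overlapped, with a difference of -0.16 ± 0.06 log2 (limma adjusted p = 0.0894). This call was lost when any 1 of 11 arrays was left out, with adjusted p values of up to 0.156. Stat2, which carries the type I interferon signal to the nucleus, was read by probe sets that disagreed. The probe set 1373670_at gave 716, 895, 697, 858 and 1140 in NP, 575, 505, 599, 626 and 707 in NP.P, 999, 902, 1059, 904 and 558 in P and 1055, 857, 791, 1165 and 764 in P.NP rats. Apart from NP replicate 3, at 697, and P replicate 5, at 558, all animals of the other strains were above the NP.P animals. Its difference between backgrounds was 0.32 ± 0.12 log2 (limma adjusted p = 0.0797), whereas the other Stat2 probe set gave 0.01 ± 0.07 (adjusted p = 0.941). The call was lost when any 1 of 12 arrays was left out, with adjusted p values of up to 0.145. Irf2, Irf3 and Irf9 were not called in the F test or any contrast.

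Parp9 and Dtx3l, which work together as an ADP-ribosyltransferase and ubiquitin ligase complex in DNA repair and interferon signalling, both separated the backgrounds completely. The Parp9 signals were 1484, 1500, 1627, 1627 and 1614 in NP and 1822, 1762, 1742, 1903 and 1866 in NP.P rats. They were 1278, 1116, 1073, 1046 and 1022 in P and 1107, 999, 1133, 1077 and 1231 in P.NP rats. All 10 animals on the P background were below all 10 on the NP background, with a log2 difference of -0.61 ± 0.05 (limma adjusted p = 3.99e-08). NP.P animals were all above NP animals, but that contrast did not pass over all probe sets (0.21 ± 0.07 log2, limma adjusted p = 0.158). Complete separation of the 10 P background from the 10 NP background animals was seen in 5 of the 48 members (10.4%) and in 1.83% of all probe sets (0.929% below, 0.902% above), all 5 members being below. These were Parp9, Dtx3l, Ifitm1, Isg20 and Tap2.

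Dtx3l had signals of 1155, 957, 1079, 1289 and 1141 in NP and 1089, 1128, 1027, 1040 and 1177 in NP.P rats. Signals were 798, 639, 771, 865 and 673 in P and 831, 762, 712, 899 and 883 in P.NP rats. The lowest NP background animal, at 957, was above the highest P background animal, at 899. The difference was -0.50 ± 0.07 log2 (limma adjusted p = 2.94e-05), and it was -0.59 ± 0.09 between P and NP alone (adjusted p = 0.000585). In the GRCr8 assembly Parp9 and Dtx3l are neighbours on opposite strands of chromosome 11, and their annotated spans overlap. The adjacent Parp14, a further interferon-induced ADP-ribosyltransferase, was not called, at 0.04 ± 0.08 and 0.25 ± 0.14 log2 on its probe sets (limma adjusted p = 0.788 and 0.224). Usp18, which removes ISG15 from proteins, was the only member on chromosome 4 and lies outside the span from Arf5 to Ppp4r2 that was taken as the transferred interval. Its mean signals were 182 ± 24.0 (SD, n = 5) in NP rats, 196 ± 30.9 in NP.P, 230 ± 52.8 in P and 225 ± 48.2 in P.NP rats, close to the testing limit (F test, limma adjusted p = 0.385).

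**Figure D3:**
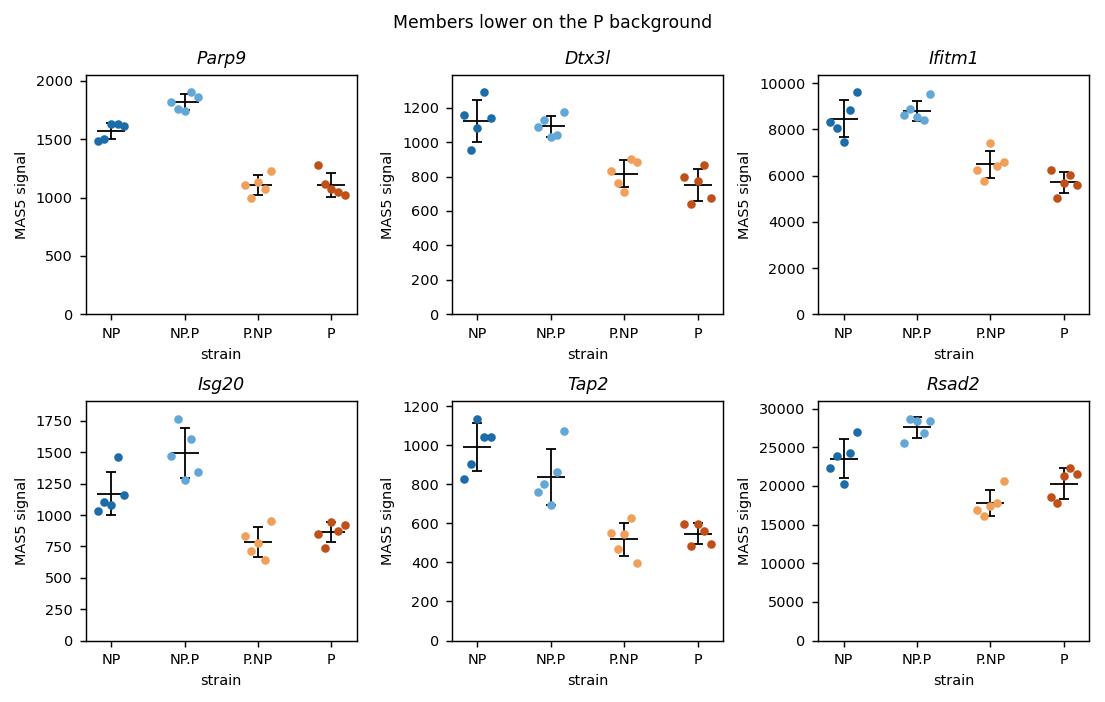
MAS5 signal per animal (linear axes from 0) of Parp9, Dtx3l, Ifitm1, Isg20, Tap2 and Rsad2 by strain. Points are animals, and bars are the mean and SD of 5. The P.NP and P animals lie below the NP and NP.P animals in each panel, with overlap for Rsad2 alone.

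Of the antiviral effectors, Ifitm1, Isg20, Rsad2 and Ifitm2 were lower on the P background. Ifitm1, a membrane protein that blocks viral entry, had signals of 8330, 8061, 7466, 8833 and 9605 in NP and 8615, 8882, 8539, 8401 and 9528 in NP.P rats. Its signals were 6228, 5041, 5662, 6019 and 5584 in P and 6255, 5778, 7413, 6422 and 6570 in P.NP rats. The backgrounds did not overlap, although P.NP replicate 3, at 7413, came close to NP replicate 3, at 7466. The difference was -0.50 ± 0.06 log2 (limma adjusted p = 4.1e-06), and between P and NP it was -0.57 ± 0.08 (adjusted p = 0.00015). Ifitm1 lies between Ifitm2 and Ifitm3 on chromosome 1. Ifitm2 had signals of 6764, 7133, 7546, 8018 and 7571 in NP, 7409, 7574, 6929, 7348 and 8439 in NP.P, 6922, 5620, 6824, 7349 and 6441 in P and 7316, 6495, 6404, 6170 and 6650 in P.NP rats. The strains overlapped, and the difference between backgrounds was -0.18 ± 0.06 log2 (limma adjusted p = 0.0347). Ifitm3 differed by 0.01 ± 0.06 log2 (adjusted p = 0.918). These genes are close in sequence, and how far their probes distinguish them was not tested.

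Isg20, a nuclease that degrades single-stranded RNA, had the highest signals in NP.P rats. They were 1468, 1769, 1280, 1606 and 1340 in NP.P and 1033, 1102, 1082, 1466 and 1164 in NP rats. They were 847, 740, 944, 873 and 919 in P and 832, 715, 779, 641 and 955 in P.NP rats. NP and NP.P animals overlapped, and all of both were above all P background animals. The difference between backgrounds was -0.68 ± 0.08 log2 (limma adjusted p = 1.12e-05). Between P and NP it was -0.43 ± 0.12 (limma adjusted p = 0.0502). That call was lost without NP replicate 4 (adjusted p = 0.138) or without P replicate 2 (0.13), with no filter on low signals (0.108) and in the methods' unequal-variance test (0.152). None of the tested neighbours within 3 genes of Isg20 on chromosome 1 was called between backgrounds.

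Rsad2, the radical SAM enzyme viperin that makes a chain terminator of viral RNA synthesis, followed the same order of strains. Its signals were 22346, 23893, 20258, 24240 and 26959 in NP and 25513, 28711, 28408, 26836 and 28394 in NP.P rats. They were 18564, 17788, 21256, 22272 and 21557 in P and 16879, 16131, 17413, 17800 and 20605 in P.NP rats. The NP.P animals were above all P background animals, whereas NP replicate 3, at 20258, lay among the P animals. The difference between backgrounds was -0.43 ± 0.06 log2 (limma adjusted p = 7.46e-05). The contrasts of P with NP and of NP.P with NP did not pass, at -0.21 ± 0.09 and 0.23 ± 0.09 log2 (limma adjusted p = 0.223 and 0.225). Cmpk2, the nucleotide kinase gene next to Rsad2 on chromosome 6, differed by -0.36 ± 0.05 log2 on 1 probe set (adjusted p = 8.01e-05) and by 0.00 ± 0.06 on the other (adjusted p = 0.997).

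The sum of erythroid markers had the same order of strain means as Isg20 and Rsad2, highest in NP.P and lowest in P.NP rats. Of these markers, Slc4a1 instead had its lowest mean in P, at 9489 against 10032 in P.NP rats. The summed signal of 9 measured erythroid markers, of 10 listed, averaged 162238 in NP, 186863 in NP.P, 152886 in P and 142246 in P.NP rats. All 9 were called lower on the P background, with a median of -0.26 log2, and all 9 had mean signals above the testing limit. The sums ranged from 144774 to 172383 in NP, 177264 to 193930 in NP.P, 142643 to 166362 in P and 134670 to 151076 in P.NP rats. Of 10 measured macrophage and monocyte markers, 4 were called lower and 1 higher on the P background. Of the 5 megakaryocyte and platelet markers, 3 were called lower and 1 higher, with a median of -0.38 log2, and their sums did not overlap between backgrounds except through NP.P replicate 4. The part of these cells in the values of Isg20, Rsad2, Parp9 and the other lower members was not tested.

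The other antiviral effectors gave no call. Bst2, which tethers budding virus to the cell surface, averaged 1400.5 ± 73.6 (SD, n = 5) in NP rats, 1397 ± 124 in NP.P, 1420.0 ± 67.6 in P and 1379 ± 132 in P.NP rats. The strain means of Ifit2, which binds viral RNA, ranged from 975 to 1011 on 1 probe set and from 509 to 516 on the other. Ifi27, Ifi44, Oas1a and Oasl were likewise called in no comparison. The classical inducible genes Isg15, Ifit3, Mx1, Mx2 and Cxcl10 were near or below the limit. Strain means were 80.4 to 112 for Isg15, 122 to 147 for Ifit3, 147 to 182 for Mx1 and 112 to 157 for Cxcl10, a chemokine that attracts T lymphocytes. Those of Mx2 were 72.6 to 110.4 over both probe sets, those of the RNA sensor Ifih1 were 90.7 to 106, and those of its regulator Dhx58 were 20.8 to 71.9 over 3 probe sets. These genes had no probe set above the filter. In the fit with no filter, the 15 member probe sets below the limit gave no limma call in the F test, with a lowest adjusted p of 0.538 and 0 at an unadjusted p under 0.05. Nor did any contrast call them, with 1 at an unadjusted p under 0.05 in limma between NP.P and NP and 0 in the others.

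Among the genes for MHC class I peptide loading, Tap2 and Tap1 were lower on the P background. Tap2, which forms the peptide transporter with Tap1, had signals of 827, 905, 1136, 1042 and 1044 in NP and 760, 802, 692, 864 and 1070 in NP.P rats. Its signals were 597, 485, 599, 561 and 495 in P and 548, 471, 546, 625 and 397 in P.NP rats. The backgrounds did not overlap, and the difference was -0.77 ± 0.09 log2 (limma adjusted p = 6.92e-06). Between P and NP it was -0.85 ± 0.13 (limma adjusted p = 0.00032). Tap1 had signals of 1102, 1050, 1069, 1591 and 1668 in NP, 1320, 1226, 1155, 1328 and 1289 in NP.P, 1238, 1098, 937, 1009 and 1097 in P and 1046, 1121, 975, 1178 and 845 in P.NP rats. NP replicates 4 and 5 stood above the rest, and the strains overlapped otherwise. The difference was -0.27 ± 0.09 log2 (limma adjusted p = 0.0495).

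Tap2, Psmb8, Tap1 and Psmb9 follow each other on chromosome 20. Psmb8, an interferon-inducible subunit of the immunoproteasome, was higher on the P background, by 0.65 ± 0.06 log2 (limma adjusted p = 4.35e-07), between the lower Tap2 and Tap1. Psmb9 differed by 0.14 ± 0.10 (adjusted p = 0.374). In the adjoining class II genes, 1 probe set of RT1-Bb differed by -5.63 ± 0.35 log2 (adjusted p = 8.52e-10) and another by 3.22 ± 0.31 (adjusted p = 6.09e-07). Such opposite values on probe sets of the same gene were measured beside the Tap2 and Tap1 values, and whether probe sequence differs between the strains at these genes was not tested.

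**Figure D4:**
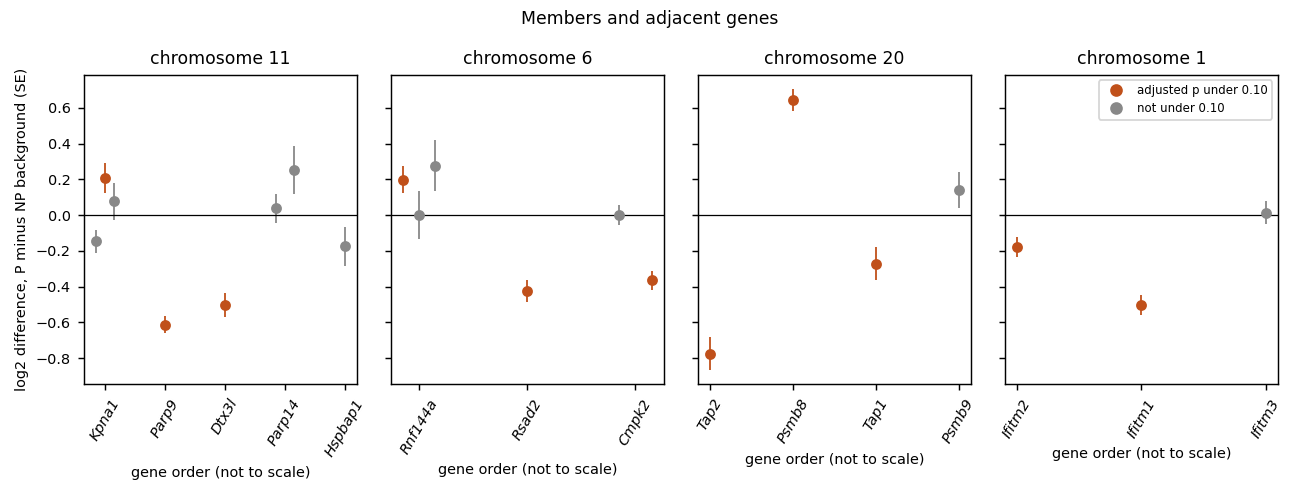
Log2 difference between P and NP backgrounds for members and adjacent genes on chromosomes 11, 6, 20 and 1 (points are probe sets, bars the standard error, genes in GRCr8 order and not to scale). Parp9 and Dtx3l are both low while Parp14 is not, and Psmb8 is high between the low Tap2 and Tap1.

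B2m, the light chain of MHC class I, was read by probe sets that disagreed. The probe set 1367595_s_at gave 40266, 47893, 49205, 49295 and 49825 in NP, 47574, 48212, 46366, 44275 and 51436 in NP.P, 43362, 39809, 44812, 45128 and 43572 in P and 43448, 41572, 44514, 43481 and 42012 in P.NP rats. Apart from NP replicate 1 and NP.P replicate 4, NP background animals were above all P background animals. The difference was -0.13 ± 0.05 log2 (limma adjusted p = 0.0576), and the other probe set gave 0.00 ± 0.06 (adjusted p = 0.973). After quantile normalization the first probe set differed by -0.02 log2 (limma adjusted p = 0.777). The call was also lost without P replicate 2 (adjusted p = 0.1) or NP.P replicate 5 (0.105).

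**Figure D5:**
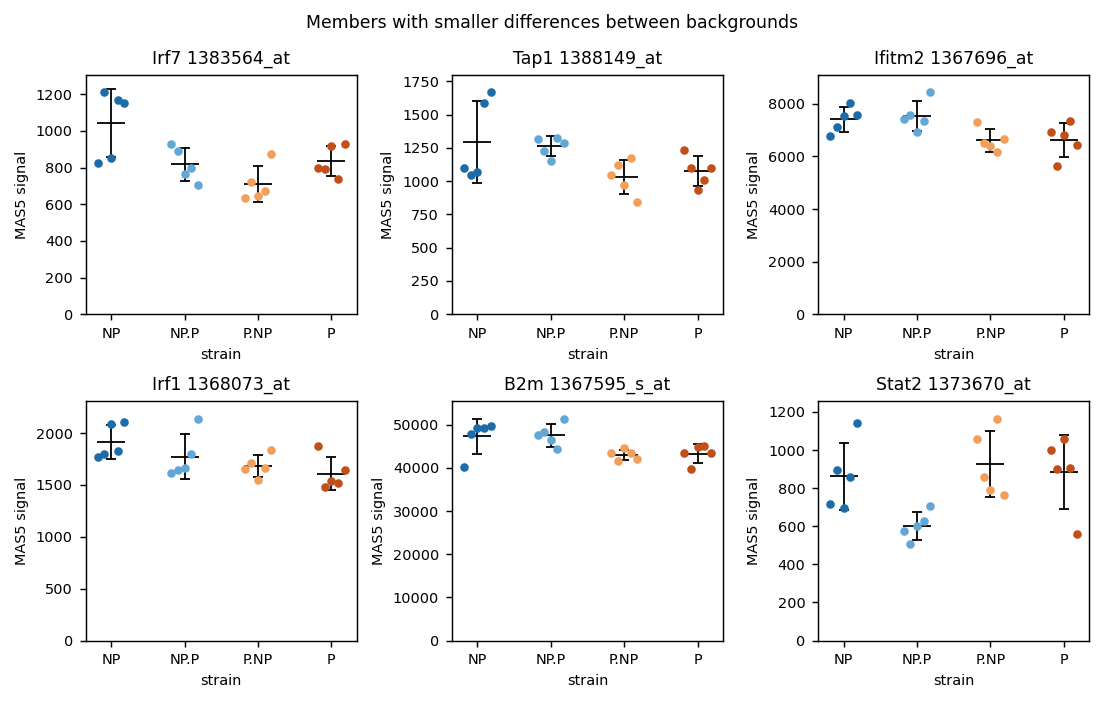
MAS5 signal per animal (linear axes from 0) of the called probe sets of Irf7, Tap1, Ifitm2, Irf1, B2m and Stat2 by strain. Points are animals, and bars are the mean and SD of 5. The strains overlap in every panel, and Stat2 is lowest in NP.P rats.

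Among the interferon-inducible GTPases, which act on the vacuoles of intracellular pathogens, Gbp2 was lowest in NP.P rats. Its signals were 705, 612, 673, 601 and 780 in NP, 556, 443, 575, 499 and 565 in NP.P, 661, 609, 691, 811 and 656 in P and 676, 626, 760, 645 and 503 in P.NP rats. The NP.P animals were below all NP and P animals and overlapped P.NP through 1 P.NP animal. The F test called it (limma adjusted p = 0.0685), but no single contrast did, with -0.35 ± 0.11 log2 between NP.P and NP (adjusted p = 0.133). The F call was lost without NP.P replicate 2 (adjusted p = 0.196) or NP.P replicate 4 (0.158), after quantile normalization (0.117) and with no filter (0.146). Igtp and Irgm were not called.

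Of the nucleic acid sensors and their regulators, Adar, which edits adenosine in double-stranded RNA, was called by the F test on 1 of 3 probe sets (1376022_at, limma adjusted p = 0.0768). Signals there were 930, 738, 905, 720 and 1014 in NP, 879, 748, 818, 719 and 692 in NP.P, 804, 650, 907, 702 and 825 in P and 1044, 976, 911, 1046 and 934 in P.NP rats. All P.NP animals were above all P and NP.P animals and overlapped NP, but no contrast passed. The call was lost when any 1 of 8 arrays was left out, with limma adjusted p of up to 0.167. Rig1, the cytosolic RNA sensor, averaged 496 ± 19.8 (SD, n = 5) in NP rats, 380 ± 15.3 in NP.P, 480 ± 63.5 in P and 413 ± 104 in P.NP rats. It was not called in the fit over 20 arrays. However, its signals ranged from 466 to 519 in NP and from 357 to 396 in NP.P, without overlap. That difference was -0.39 ± 0.13 log2 (limma adjusted p = 0.169). The paper lists this gene, as Ddx58, as lower in NP.P than in NP by its unequal-variance test on differently normalized values. Eif2ak2, Zbp1 and Trim25 were not called either.

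The reciprocal substitution of the chromosome 4 segment gave few member calls. In the fit of all strains together, NP.P differed from NP in Irf8 alone. This contrast held 14 of 48 members (29.2%) at an unadjusted p under 0.05 in limma, against 13.1% of all probe sets. The fit of NP.P and NP alone called 1 member, as did the methods' unequal-variance test, and neither called Irf8. P.NP differed from P in no member, and the methods' unequal-variance test also called none. At an unadjusted p under 0.05 in limma there were 3 members (6.25%), against 7.7% of all probe sets. The contrast of P.NP with P called 0.231% of all probe sets, 0.113% higher and 0.118% lower. The interaction called no member, and 0.317% of all probe sets. At an unadjusted p under 0.05 in limma it held 8 members (16.7%) and 9.71% of all probe sets. Between the inbred strains, P was lower than NP in 6 members (12.5%), namely Parp9, Dtx3l, Ifitm1, Isg20, Tap2 and Irf8, and higher in none. That contrast called 5.36% of all probe sets, 2.94% lower and 2.43% higher.

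The rest of the interferon pathway was read from a list of 85 genes, of which 62 were measured and 53 tested on 64 probe sets. The F test called 13 of the 64 (20.3%), against 18.2% of all probe sets. The background contrast also called 13 (20.3%), 6 higher and 7 lower on the P background. It called 22.5% of all probe sets, 11.1% higher and 11.3% lower, so the share in the pathway was near that of the series. Psmb8 averaged 2068 ± 276 (SD, n = 5) in NP rats, 2016 ± 111 in NP.P, 3202 ± 346 in P and 3185 ± 133 in P.NP rats. Slfn4, a myeloid Schlafen family gene, averaged 825 ± 136 in NP, 852 ± 85.3 in NP.P, 1483 ± 212 in P and 1274 ± 239 in P.NP rats, a difference of 0.71 log2 between backgrounds (limma adjusted p = 2.68e-05). The others called by the F test were Casp1, Cmpk2, Trim5, Lgals9, Ddx60, Sting1, Trim14, Lgals3bp, Psme1 and Pias1, with Ptpn6 the least (limma adjusted p = 0.0981).

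In the contrast of NP.P with NP, 5 of these 64 probe sets were called, all lower in NP.P (7.81%, against 1.49% of all probe sets called lower). Casp1, the inflammasome protease, ranged from 1358 to 1747 in NP and from 1175 to 1310 in NP.P rats, without overlap, and differed by -0.40 ± 0.07 log2 (limma adjusted p = 0.0177). Sting1, the adaptor of cytosolic DNA sensing, ranged from 477 to 635 in NP and from 288 to 398 in NP.P, also without overlap, and differed by -0.59 ± 0.15 (adjusted p = 0.0703). Trim14, an adaptor of antiviral signalling, ranged from 325 to 449 in NP and from 209 to 315 in NP.P, and differed by -0.58 ± 0.15 on the called probe set (adjusted p = 0.0703). The helicase gene Ddx60 and the phosphatase gene Ptpn6 overlapped between the strains and differed by -0.77 ± 0.20 and -0.37 ± 0.10 log2 (limma adjusted p = 0.0774 and 0.094). Casp1 was also called in the interaction (limma adjusted p = 0.0748). In the same contrast, 3 of the 4 measured B lymphoid markers, 4 of the 8 MHC class II markers and 3 of the 5 megakaryocyte and platelet markers were called lower, and 2 of the 9 measured erythroid markers were called higher. Their part in these 5 differences was not tested.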

How the data were processed

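Femur RNA of 20 rats was hybridized to 20 Rat Genome 230 2.0 arrays, 5 per strain. The authors deposited MAS5 signals, which are linear intensities scaled to a common trimmed mean per array; the values of their own statistical tests were not used. Per the submitters' processing notes the tool was MAS5. Signals under 1 (190 values) were set to 1 and taken to log2. Probe sets whose mean log2 value reached the 40th percentile (18625 of 31042 that were not controls) were fitted with limma 3.58.1 in R 4.3.3, with 4 strain means, 16 residual and 2.78 prior degrees of freedom, and Benjamini-Hochberg adjustment over all of them. The script was tested on simulated data. Arrays give no counts, so that their number limits the precision.

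Samples were grouped by the strain in their labels. The contrasts were P minus NP, NP.P minus NP, P.NP minus P, the P background (P and P.NP) minus the NP background (NP and NP.P), the P segment effect over both backgrounds, and its interaction with the background. The fit was repeated without a filter and with the 60th percentile as filter, after quantile normalization, with 21.7 (the 10th percentile of signals) added before the log, with a mean-variance trend, at 5%, with 1 probe set per gene, for 2 strains alone, by the methods' unequal-variance test, with a replicate block and with single arrays left out.

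The members, the pathway and marker lists and the tests were chosen with earlier results of these data known. Values per array were given for each called member, and pathway genes called in the F test were named. Of the 31042 probe sets, 20826 had 1 gene symbol, 436 several and 9780 none. Gene order and promoters came from RefSeq (GRCr8); the build used by the array annotation is not given in the sources used here. Python 3.11.15 and matplotlib 3.10.9 were used for motifs and plots.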

Additional observations from a re-analysis of the deposited data

Results flagged for a closer look

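In 3 of the 60 strain groups examined for the called members, 1 animal stood apart from the other 4 by Dixon's ratio (0.71 at the 95% level for 5 samples), and chance gives about 1 such group in 20. The B2m signal on 1367595_s_at was 40270 in NP replicate 1, and the other NP animals had 47890 to 49820. The Irf8 signal was 1139 in P.NP replicate 2, and the other P.NP animals had 1387 to 1450. The Stat2 signal on 1373670_at was 558 in P replicate 5, and the other P animals had 902 to 1059.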

How the results depend on the processing

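The direction of every called difference was the same under all alternatives, and 767 of 851 values kept their side of the threshold. Member calls between backgrounds numbered 7 with no filter (12 with it), where Irf1 (adjusted p = 0.164), Stat2 (0.15), B2m (0.114), Irf7 (0.101) and Tap1 (0.1) were lost. Calls of NP.P against NP numbered 2 with the filter at the 60th percentile (1 otherwise). Calls of the segment effect numbered 0 with no filter, with quantile normalization and at a false discovery rate of 5%, and 2 with the filter at the 60th percentile and with a mean-variance trend (1 otherwise). The cause was not tested, beyond the larger or smaller number of probe sets adjusted for under the filters. Leaving out each array gave 8 to 13 member calls in the F test, 5 to 8 for P against NP, 1 to 2 for NP.P against NP, 0 for P.NP against P, 10 to 13 between backgrounds, 0 to 1 for the segment and 0 for the interaction. For the other pathway genes it gave 8 to 15 calls in the F test, with 8 without NP.P replicate 2 or without NP.P replicate 4, and 10 to 14 between backgrounds. Low signals limit the members below the filter.

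Not every same-numbered pair of animals correlated above 0.1, so the replicate numbers were not taken to pair the animals. The deviations from strain means of the 30 pairs correlated at -0.0887 to 0.333, with 5 over 0.1, and 7 of 20 arrays correlated best with their own number. Replicate 2 of NP, P and P.NP correlated in all 3 pairs (0.2615 to 0.333), and in each of these strains it had the highest summed skeletal muscle marker signal (288291, 253219 and 260978). With the replicate number as a block, the members called numbered 10 in the F test, 6 for P against NP, 1 for NP.P against NP, 0 for P.NP against P, 11 between backgrounds, 1 for the segment and 0 for the interaction, and the other pathway genes called numbered 14 and 12. The block ended the call of Stat2.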
